A study of Mus with 15 samples.

Results

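Calcium signalling was among the pathways that the study reported as enriched in its RNA sequencing of the aorta. The study measured calcium itself in cultured rat vascular smooth muscle cells. Here, 7 genes of calcium stores, calcium entry and calcium sensing were described with 1 transcript each. The genes were Itpr1, Ryr2, Atp2a2, Pln, Cacna1c, Calm2 and Calm3, and each transcript was given by its identifier. Of the 7 identifiers, 6 were listed in all 15 files, among 126719 identifiers in the files of the Control and AngII mice and 125443 in those of the AngII+QDG mice. The Cacna1c transcript, ENSMUST00000075591, was in none of these files and is not analysed here. Gene names came with the list of identifiers, since the files hold identifiers alone.

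RNA was sequenced from the whole abdominal aorta of 15 young adult male wild-type C57BL/6 mice, 5 per group, after 14 days of treatment. Control mice received saline by osmotic pump. AngII mice received angiotensin II, a hormone that raises blood pressure, at 500 ng/kg/min, although the descriptions of single AngII mice run up to 504 ng/kg/min. AngII+QDG mice received angiotensin II at 500 ng/kg/min together with Qingda granule (QDG), a herbal formula, at 1.145 g/kg/day by mouth, while the other groups were given water by mouth. The values were taken as FPKM, fragments scaled for the length of the transcript and for the mapped fragments of the library, so transcripts of different length can be compared. In RNA from whole tissue, fewer cells of a type and less RNA per cell cannot be told apart. The labelled tissue was not checked against marker genes here.

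Vascular smooth muscle contracts when calcium in the cytoplasm rises. Angiotensin II acts through a receptor that makes inositol trisphosphate, which opens the channel encoded by Itpr1 in the sarcoplasmic reticulum, and the ryanodine receptor encoded by Ryr2 releases calcium from the same store. The pump encoded by Atp2a2 returns calcium to the store, and phospholamban, encoded by Pln, holds that pump back until it is phosphorylated. Calcium enters through the plasma membrane by the voltage-gated channel whose pore Cacna1c encodes. Calmodulin, which several genes including Calm2 and Calm3 encode as the same protein, binds the calcium and switches on myosin light chain kinase.

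The genes lie on separate parts of the genome in the RefSeq annotation of GRCm38.p6, the assembly to which the reads were also aligned. The release channels are encoded by long genes, Itpr1 at chr6:108213083-108551116 (338034 bp) and Ryr2 at chr13:11553099-12106945 (553847 bp). Atp2a2 lies at chr5:122453513-122502225 (48713 bp) and Pln at chr10:53337686-53345999 (8314 bp). Calm2 is at chr17:87433401-87446935 (13535 bp) and Calm3 at chr7:16915379-16924032 (8654 bp). RefSeq lists 19 transcripts for Itpr1, 21 for Ryr2, 3 for Atp2a2, 2 for Pln, 2 for Calm2 and 1 for Calm3, curated and predicted together. Each value below therefore belongs to 1 transcript and is not the sum of its gene, and other transcripts of these genes were not used here.

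The 6 transcripts covered levels from near 0 to among the highest in the aorta. Averaged over the 15 mice, Calm2 stood at 221 FPKM, Calm3 at 173, Pln at 2.22, Atp2a2 at 1.07, Ryr2 at 0.532 and Itpr1 at 0.0476. Among 107875 Ensembl transcripts that all files hold and that were above 0 in at least 1 mouse, Calm2 ranked 246 and Calm3 ranked 325 by mean FPKM. The mean of Pln was above that of 86.0% of these transcripts, of Atp2a2 79.9%, of Ryr2 72.2% and of Itpr1 33.4%. The listed calmodulin transcripts were thus far above the listed transcripts of the store, and within each mouse Calm3 was at least 43.9 times as high as Pln. Other transcripts of the store genes are not part of this comparison.

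**Figure D1:**
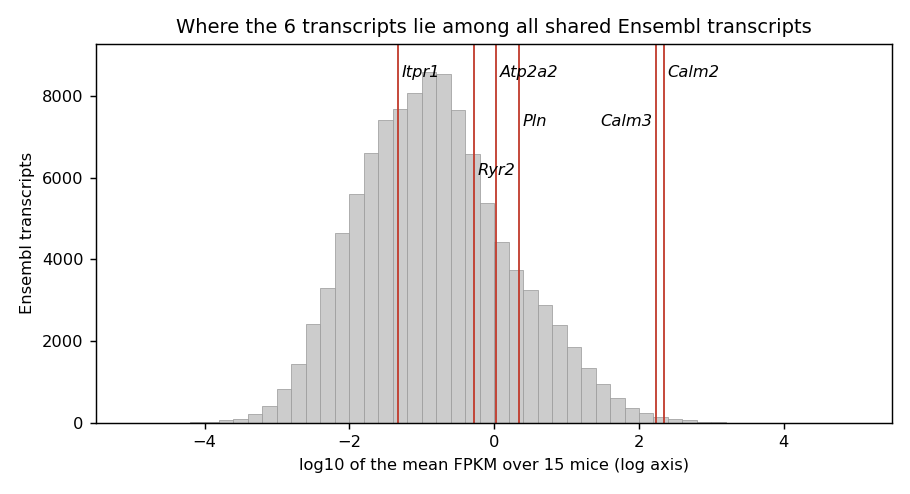
Number of Ensembl transcripts (vertical axis) by the log10 of their mean FPKM over 15 mice (horizontal axis), with a red line at each of the 6 transcripts. Calm2 and Calm3 lie in the upper tail, while Itpr1 lies below the peak of the distribution.

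Some neighbours in this order could not be separated in every mouse. Calm2 was above Calm3 in 15 of 15 mice, Calm3 above Pln in 15 of 15, and Ryr2 above Itpr1 in 15 of 15. Pln was above Atp2a2 in 11 of 15 mice, and their ranges overlapped in each group. Atp2a2 was above Ryr2 in 10 of 15 mice, which were 4 of 5 Control mice, 2 of 5 AngII mice and 4 of 5 AngII+QDG mice. A 2-sided exact permutation test that flips the sign of each mouse's difference in FPKM gave p = 0.00165 for Pln above Atp2a2 and p = 0.0451 for Atp2a2 above Ryr2 (0.00206 and 0.0451 adjusted over the 5 pairs of neighbours). The order was set by the means of the same mice.

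Values per mouse are given below in a fixed order. It is 3996, 4000, 4086, 3971 and 3994 for Control mice, 3988, 3989, 3986, 3987 and 4048 for AngII mice, and 3981, 3982, 3983, 3984 and 3985 for AngII+QDG mice. Summed FPKM was 454587 to 547311 per mouse. Absolute depth is unknown, and a rough estimate of relative depth from low values spanned a factor of 1.125 over the mice. The AngII+QDG files rest on another list of transcripts than the other files, so that the list and QDG treatment cannot be told apart in any comparison with these mice. Both comparisons with AngII mice share those 5 mice, and both comparisons with AngII+QDG mice share theirs.

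The calcium sensor was high in every mouse. Calm2 (ENSMUST00000040440) was at 207, 226, 210.3, 182 and 182 FPKM in Control mice. In AngII mice it was at 273, 259, 182, 231 and 262 FPKM. In AngII+QDG mice it was at 245, 198, 195, 269 and 189.5 FPKM. Of the AngII mice, 4 were above every Control mouse, and the other, mouse 3986, was as low as the lowest Control mice. The AngII+QDG mice spanned both of these ranges, with mice 3981 and 3984 near the high AngII mice and the other 3 near the Control mice.

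Group means of Calm2 were 201 ± 19.1 FPKM (SD, n = 5) in Control, 241 ± 36.5 (SD, n = 5) in AngII and 219 ± 35.9 (SD, n = 5) in AngII+QDG mice. Differences were fitted with limma on log2(FPKM + 1), over all transcripts with at least 1 FPKM in at least 5 of the 10 mice compared. Between AngII and Control mice the log2 fold change of Calm2 was 0.25 (standard error 0.14), or 1.19-fold with a 95% interval from 0.966 to 1.47, and it did not pass the test (limma adjusted p = 0.995, unadjusted 0.0934). The exact permutation test on the mean FPKM, 2-sided over every labelling of the mice, gave p = 0.0635. Its smallest possible p is 0.00794.

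With each of the 10 mice left out in turn, the difference was widest without mouse 3986. Without it the Calm2 fold was 1.27, with a 95% interval from 1.07 to 1.52, and the exact permutation p was 0.0159, while the limma adjusted p over all transcripts was 0.633 (unadjusted 0.0120). With any other of the 10 mice left out, the exact permutation p was from 0.0635 to 0.119. Mouse 3986 was picked from these same values, and without it every AngII mouse was above every Control mouse. This mouse also had the lowest summed FPKM of the AngII group, 476292, and the lowest rough estimate of relative depth among the 15 mice, 0.923 of that of Control mouse 3996. The part of either value in the low Calm2 was not tested. With every mouse scaled to the same sum over shared transcripts, the log2 fold change of Calm2 was 0.21 with mouse 3986 included (limma adjusted p = 0.999), and with scaling by the upper quartile of each mouse it was 0.28 (limma adjusted p = 0.970).

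Between AngII+QDG and AngII mice Calm2 had a log2 fold change of -0.14 (standard error 0.15), or 0.908-fold with a 95% interval from 0.717 to 1.15 (limma adjusted p = 0.978; exact permutation p = 0.357). Without AngII mouse 3986 the fold was 0.849, with a 95% interval from 0.683 to 1.05 (limma adjusted p = 0.760), and without AngII+QDG mouse 3984 the log2 fold change was -0.22. Without AngII mouse 3988 it was -0.091. Scaling by the upper quartile moved the median of all transcripts in this comparison from -0.0032 to -0.12 on the log2 scale, and Calm2 with it to -0.29 (limma adjusted p = 0.512). Between AngII+QDG and Control mice the log2 fold change was 0.11 (standard error 0.13, limma adjusted p = 0.937, exact permutation p = 0.365), and it fell to -0.0042 under upper quartile scaling. On the deposited scale it was 0.034 without AngII+QDG mouse 3984. The middle position of Calm2 in AngII+QDG mice was therefore within the spread between mice on both sides.

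Calm3 (ENSMUST00000019514), the other calmodulin transcript, varied least among the 4 transcripts fitted. In Control mice it was at 189, 158, 167, 172 and 157 FPKM. AngII mice had 182, 178, 151, 178 and 182 FPKM, and AngII+QDG mice had 183, 159, 169, 209.6 and 156 FPKM. The 3 groups overlapped throughout, and 4 of the AngII mice lay within a narrow band from 178 to 182 FPKM, with mouse 3986 below it.

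Means of Calm3 were 169 ± 13.0 FPKM (SD, n = 5) in Control, 174 ± 13.0 (SD, n = 5) in AngII and 175 ± 21.8 (SD, n = 5) in AngII+QDG mice. The fold was 1.03 between AngII and Control mice, with a 95% interval from 0.882 to 1.21 (limma adjusted p = 0.995). Between AngII+QDG and AngII mice it was 1.00, with a 95% interval from 0.840 to 1.20 (limma adjusted p = 0.999). Between AngII+QDG and Control mice it was 1.04, with an interval from 0.871 to 1.23 (limma adjusted p = 0.969). Exact permutation tests gave p = 0.516, 0.921 and 0.611 in the same order. The signs of both differences from AngII+QDG mice turned under upper quartile scaling, to log2 fold changes of -0.14 and -0.065. Within groups the SD of Calm3 was 0.13 on the log2 scale, and 2.50% of the 23914 shared transcripts that passed the filter over 15 mice had a smaller one. The same SD was 0.20 for Calm2, with 12.4% of transcripts below it.

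**Figure D2:**
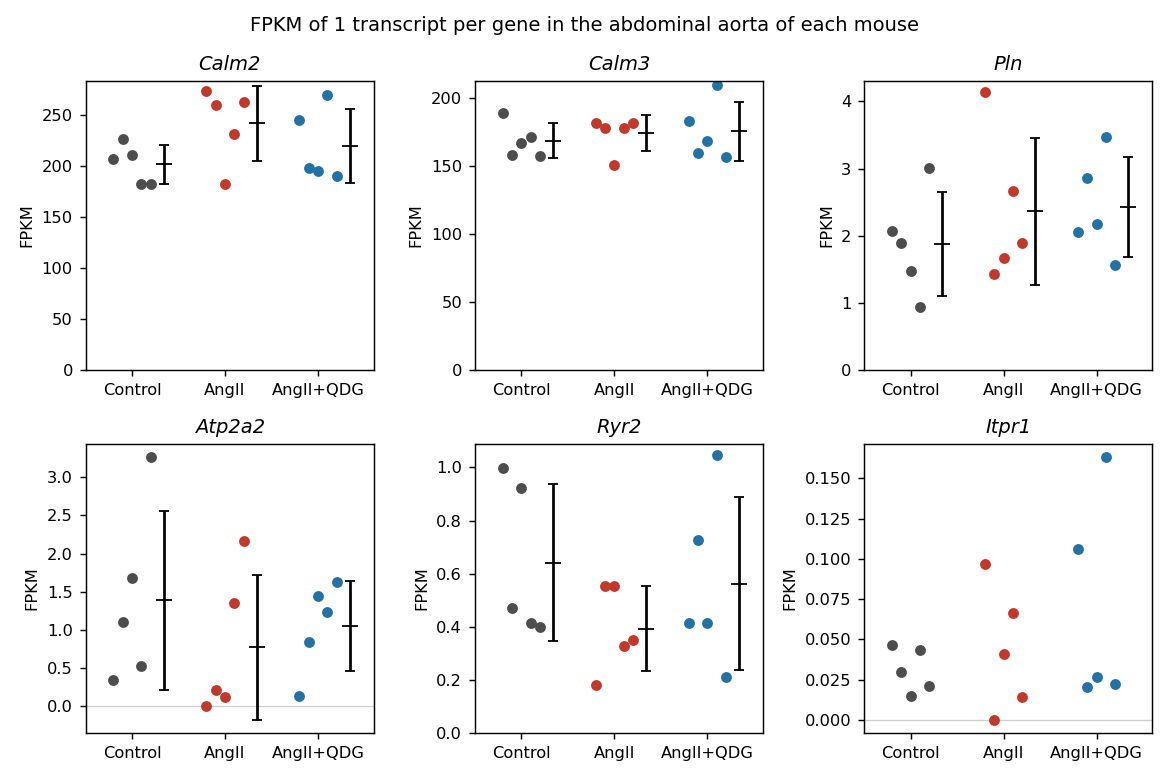
FPKM (vertical axis, linear) of each transcript in every mouse, in Control, AngII and AngII+QDG groups, with the group mean and SD in black beside the points (Itpr1 is shown as points alone). Calm2 is higher in 4 of 5 AngII mice than in every Control mouse, and the groups overlap in each of the other panels.

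Both calmodulin transcripts moved together between mice. Across the 15 mice, Pearson's r of Calm2 with Calm3 on log2(FPKM + 1) was 0.73 (permutation p = 0.0022, 0.033 adjusted over 15 pairs) and Spearman's rho was 0.71 (permutation p = 0.00422, 0.0633 adjusted). Without mice 3988 and 3984, the farthest from the median of Calm2, r was 0.64 (n = 13, permutation p = 0.0207). With the mean of each group removed, r was 0.76 (permutation p = 0.00099). The shuffling ran over all 15 mice and not within groups, so this p may be too small. Both values of a mouse come from 1 library and share its scaling. How the authors' quantification treated reads that match more than 1 calmodulin gene is not given in the sources used here. Among 11944 other transcripts with at least 1 FPKM in every mouse, Calm3 ranked 126 by rho with Calm2, and 1.05% of them had a higher rho. Calm2 ranked 250 by rho with Calm3, and 2.08% had a higher one.

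The balance of the pair differed between mice as well. Calm2 was 1.20 ± 0.149 times as high as Calm3 in Control mice (SD, n = 5), 1.38 ± 0.124 times in AngII mice (SD, n = 5) and 1.25 ± 0.0688 times in AngII+QDG mice (SD, n = 5). In single mice the ratio was between 1.06 and 1.43 in the Control group, between 1.21 and 1.50 in the AngII group and between 1.15 and 1.33 in the AngII+QDG group. These ranges overlap, and no test was made of the ratio.

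**Figure D3:**
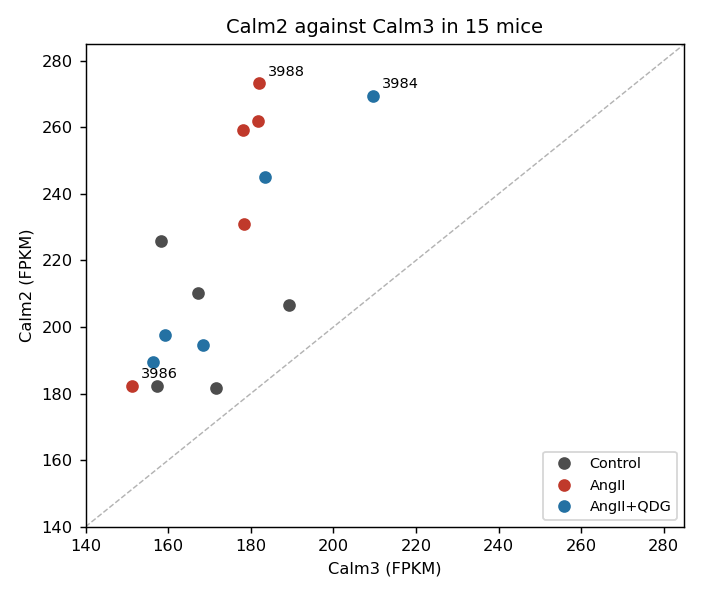
Calm2 (vertical axis, FPKM) against Calm3 (horizontal axis, FPKM) in 15 mice, coloured by group, with axes that do not start at 0 and a dashed line of equal values. All mice lie above the line, and mouse 3986 lies apart from the other AngII mice at the lower left.

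The transcripts given for phospholamban and its pump were measured at far lower levels, which say nothing of other transcripts of these genes. Pln (ENSMUST00000046221) was at 2.07, 1.89, 1.48, 0.933 and 3.00 FPKM in Control mice. AngII mice had 4.14, 1.43, 1.68, 2.67 and 1.89 FPKM, and AngII+QDG mice had 2.06, 2.86, 2.17, 3.47 and 1.56 FPKM. AngII mouse 3988 was the highest of all mice, and the other AngII mice fell within the Control range. Means were 1.88 ± 0.767 FPKM (SD, n = 5) in Control, 2.36 ± 1.10 (SD, n = 5) in AngII and 2.43 ± 0.747 (SD, n = 5) in AngII+QDG mice.

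No comparison separated Pln between groups. The log2 fold change was 0.21 between AngII and Control mice (standard error 0.26, limma adjusted p = 0.995, exact permutation p = 0.476). Without AngII mouse 3988 it was 0.045, without Control mouse 3971 it was 0.079 and without Control mouse 3994 it was 0.34. It was 0.054 between AngII+QDG and AngII mice (standard error 0.24, limma adjusted p = 0.998, exact permutation p = 0.913), and turned to -0.048 under upper quartile scaling. Between AngII+QDG and Control mice it was 0.27 (standard error 0.23, limma adjusted p = 0.880, exact permutation p = 0.278), and without Control mouse 3971 it was 0.13. The 95% intervals of the fold, 0.779 to 1.72, 0.720 to 1.50 and 0.849 to 1.70 in that order, do not reach 2-fold in either direction on the log2(FPKM + 1) scale. With a pseudocount of 0.1 the upper ends were 2.18-fold in AngII vs. Control and 2.18-fold in AngII+QDG vs. Control, so a 2-fold rise is within the interval there.

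Atp2a2 (ENSMUST00000031423), the transcript of the pump, varied most among the transcripts fitted. It was at 0.335, 1.10, 1.68, 0.526 and 3.27 FPKM in Control mice. AngII mice had 0.00288, 0.203, 0.113, 1.36 and 2.16 FPKM, and AngII+QDG mice had 0.132, 0.838, 1.44, 1.23 and 1.62 FPKM. In the AngII group 3 mice were below every Control mouse and the other 2 were inside the Control range. The SD exceeded the mean in that group, at 0.767 ± 0.950 FPKM (SD, n = 5), against 1.38 ± 1.18 (SD, n = 5) in Control and 1.05 ± 0.592 (SD, n = 5) in AngII+QDG mice.

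Only 5 of 10 mice reached 1 FPKM of Atp2a2 in AngII vs. Control and in AngII+QDG vs. AngII, the least that admits a transcript to the fit. The log2 fold change was -0.46 between AngII and Control mice (standard error 0.41, limma adjusted p = 0.995, exact permutation p = 0.397). It was 0.31 between AngII+QDG and AngII mice (standard error 0.36, limma adjusted p = 0.981, exact permutation p = 0.563) and -0.15 between AngII+QDG and Control mice (standard error 0.34, limma adjusted p = 0.970, exact permutation p = 0.651). On the log2(FPKM + 1) scale, the 95% interval for AngII vs. Control runs from 0.388-fold to 1.36-fold, and so includes a 2-fold fall. That for AngII+QDG vs. AngII runs from 0.714-fold to 2.16-fold, and so includes a 2-fold rise. For AngII+QDG vs. Control it runs from 0.534-fold to 1.53-fold. Single mice moved these values widely. Over the fits without 1 mouse that still tested Atp2a2, the log2 fold change between AngII and Control mice ran from -0.64 to -0.29. The difference in mean FPKM between AngII and Control mice, -0.617, was -0.146 without Control mouse 3994 and -0.965 without AngII mouse 4048. The log2 fold change between AngII+QDG and AngII mice was 0.15 without AngII mouse 3988 and 0.19 without AngII mouse 3986, and 0.51 without AngII+QDG mouse 3981. Between AngII+QDG and Control mice it turned to 0.097 without Control mouse 3994 and to 0.054 without AngII+QDG mouse 3981. Without Control mouse 3996 it was -0.32. A pseudocount of 0.1 in place of 1 gave a log2 fold change of -1.30 between AngII and Control mice and 1.03 between AngII+QDG and AngII mice (limma adjusted p = 0.979 and 0.945). Their 95% intervals were then -3.41 to 0.811 and -1.06 to 3.11 on the log2 scale. Between AngII+QDG and Control mice it gave -0.27, with an interval from -1.83 to 1.29. Within groups the SD on the log2(FPKM + 1) scale was 0.64, and 74.4% of the 23914 transcripts had a smaller one, while for Pln it was 0.38, with 46.4% of transcripts below it.

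No relation of Pln with Atp2a2 was detected across mice. Pearson's r was 0.063 (permutation p = 0.823, 0.996 adjusted over 15 pairs) and Spearman's rho was 0.00 (permutation p = 1.0) over 15 mice. Pln was between 0.880 and 6.18 times as high as Atp2a2 in Control mice and between 0.959 and 15.7 times in AngII+QDG mice. In AngII mice this ratio ran from 0.877 in mouse 4048 to 1438 in mouse 3988, which had the highest Pln and the lowest Atp2a2 of all 15 mice.

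**Figure D4:**
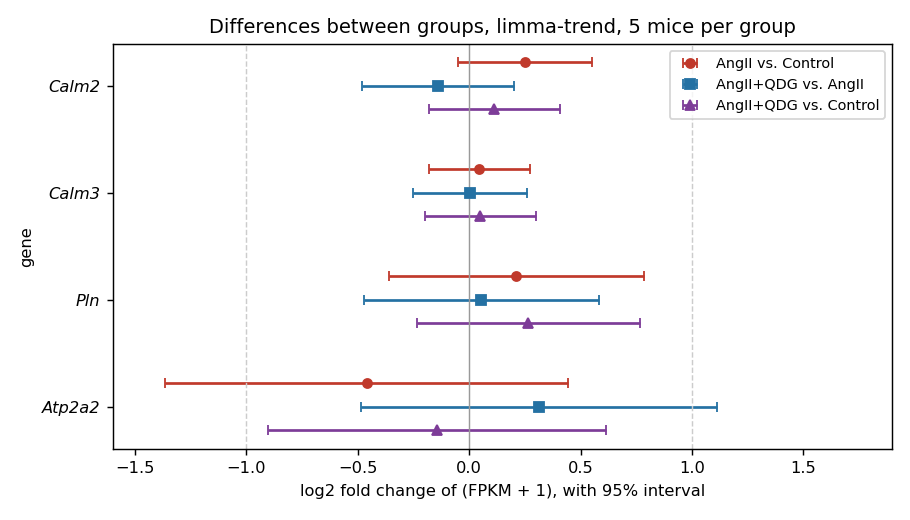
Log2 fold change of (FPKM + 1) with its 95% interval (horizontal axis) for the 4 transcripts that passed the filter, in the 3 comparisons, from limma with 5 mice per group. Every interval includes 0, and those of Atp2a2 are the widest. Dashed lines mark 2-fold changes.

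The transcripts of the release channels were below the filter in each comparison, so exact permutation tests were used for them. Ryr2 (ENSMUST00000021750) was at 0.999, 0.471, 0.924, 0.413 and 0.401 FPKM in Control mice. AngII mice had 0.181, 0.555, 0.554, 0.327 and 0.349 FPKM, and AngII+QDG mice had 0.416, 0.725, 0.414, 1.05 and 0.210 FPKM. In the AngII group 3 mice were below every Control mouse, and none reached the upper Control mice. Means were 0.641 ± 0.295 FPKM (SD, n = 5) in Control, 0.393 ± 0.161 (SD, n = 5) in AngII and 0.562 ± 0.327 (SD, n = 5) in AngII+QDG mice. The difference was -0.248 FPKM between AngII and Control mice (exact permutation p = 0.183), 0.169 between AngII+QDG and AngII mice (exact permutation p = 0.357) and -0.0791 between AngII+QDG and Control mice (exact permutation p = 0.706). Without Control mouse 3996 the first difference was -0.159 FPKM, and without AngII+QDG mouse 3984 the second was 0.0481 FPKM. The third turned to 0.0104 FPKM without Control mouse 3996 and to 0.00898 FPKM without AngII+QDG mouse 3985. Fitted with no filter on low values, the limma adjusted p of Ryr2 was 0.881, 0.856 and 0.932 in that order.

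Itpr1 (ENSMUST00000032192) was close to 0 in every mouse. Control mice had 0.0463, 0.0299, 0.0151, 0.0433 and 0.0213 FPKM. AngII mice had 0.0969, 0, 0.0413, 0.0662 and 0.0145 FPKM, where mouse 3989 was listed at 0, and AngII+QDG mice had 0.106, 0.0205, 0.0266, 0.163 and 0.0222 FPKM. The highest values were in AngII+QDG mice 3984 and 3981 and in AngII mouse 3988, each above every Control mouse, as was AngII mouse 3987. AngII mice 3989 and 4048 were below every Control mouse, and the remaining mice lay within the Control range. Exact permutation tests on the mean FPKM gave p = 0.540 for AngII vs. Control, 0.492 for AngII+QDG vs. AngII and 0.357 for AngII+QDG vs. Control. With no filter, the limma adjusted p was 0.915, 0.888 and 0.846 in that order. The depth behind values this low is unknown, and they say nothing of other Itpr1 transcripts.

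Over the 15 mice, r of Itpr1 with Ryr2 was 0.15 (permutation p = 0.596, 0.813 adjusted over 15 pairs) and rho was -0.021 (permutation p = 0.943), and r was -0.36 without mice 3981 and 3984. Itpr1 with Calm3 had an r of 0.68 (permutation p = 0.00548, 0.0411 adjusted) and a rho of 0.51 (permutation p = 0.0538, 0.325 adjusted). Without mice 3981 and 3984, the highest in Itpr1, r was 0.32 (n = 13, permutation p = 0.297), and rho was not computed without them. With the mean of each group removed and all 15 mice kept, r was 0.68 (permutation p = 0.00554, 0.0416 adjusted) and rho was 0.66. The shuffling again ran over all mice and not within groups, so this p may be too small. Mouse 3984 had the highest Itpr1, Ryr2 and Calm3 of all mice, the highest Calm2 and Pln of the AngII+QDG group, and the lowest summed FPKM of all mice, 454587. The part of the summed FPKM in these values was not tested. Itpr1 with Pln had an r of 0.55 (permutation p = 0.0355, 0.177 adjusted) and a rho of 0.46 (permutation p = 0.0867), and r was 0.53 without mice 3981 and 3984 (n = 13, permutation p = 0.0676). In all, 3 of the 15 pairs had a permutation p below 0.05 for r, and 2 had one after adjustment over the pairs. For rho, the lowest permutation p after adjustment was 0.0633, for Calm2 with Calm3.

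Counted together, 0 of the 4 transcripts fitted were called in any comparison at an adjusted p below 0.05 with limma. In AngII vs. Control 0.00732% of 27327 transcripts tested were called in this way, in AngII+QDG vs. AngII 1.73% of 21081, and in AngII+QDG vs. Control 1.81% of 21250. At an unadjusted p below 0.05 the count was also 0 of 4 in each comparison, where 4.75%, 7.86% and 8.98% of all transcripts tested were below it. By the fold and p limits of the study's methods, 2-fold or more at a p below 0.05, 0 of 4 were called, against 1.5%, 3.53% and 3.64% of all transcripts. The study used these limits with DESeq. Here they were applied to limma folds of log2(FPKM + 1), so the shares are not the study's own. The median log2 fold change over all transcripts tested was 0.017, -0.0032 and 0.020 in the same order. Of the 18 exact permutation tests, 6 transcripts in 3 comparisons, 0 had a p below 0.05, and the lowest was that of Calm2 between AngII and Control mice. At such shares, 0 of 4 does not set these transcripts apart from the rest.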

How the data were processed

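According to the methods, the authors filtered the reads, aligned them to GRCm38/mm10 with HISAT2 and quantified transcripts with StringTie; the submitters' processing notes also name limma. The authors deposited 1 file per mouse with 1 value per transcript. The file headers do not name the unit, which was taken as FPKM, scaled for length and mapped fragments, from the deposited values and from the use of StringTie, so tests of counts were not used.

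The transcripts, gene names and lists were chosen with earlier results of these data known. All members held by the files are named with every value. A planned list of further pathway genes, cell type markers and transcripts of like pattern was not used here, since none of the tables used here pairs Ensembl transcripts with symbols. Loci were looked up by symbol in RefSeq (7 of 7 matched).

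For each comparison, the 10 mice concerned were fitted by limma-trend (limma 3.58.1, R 4.3.3). Values were taken as log2(FPKM + 1), and transcripts entered with at least 1 FPKM in at least 5 mice, with Benjamini-Hochberg adjustment over all transcripts tested. AngII vs. Control used all 126719 identifiers, while those involving AngII+QDG were limited to the 108027 Ensembl transcripts present in every file. The fit was tested on simulated data. Exact permutation tests used every labelling of the 10 mice, and correlations used 100000 permutations. No 2 files of a group were identical. Figures were drawn with matplotlib 3.10.9.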

Additional observations from a re-analysis of the deposited data

Results flagged for a closer look

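In each of 18 groups of values, 6 transcripts in 3 groups of 5 mice, a mouse far from the other 4 was looked for, with a gap to its nearest neighbour of over 0.71 of the whole range. Chance flags about 1 in 20 such groups, or about 0.9 here, and 1 was found. Calm3 was 151 FPKM in AngII mouse 3986, while the other AngII mice lay between 178 and 182 FPKM, a gap of 0.879 of the range. Calm2 was lowest in the same mouse, at 182 FPKM, with a gap of 0.533 of the range, which is below the limit. Without this mouse the difference in mean Calm2 between AngII and Control mice was 54.8 FPKM in place of 40.1.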

How the results depend on the processing

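In every alternative that was run, 0 transcripts of the set were called at a limma adjusted p below 0.05, in each of the 3 comparisons, among those that passed the filter. Atp2a2 did not pass it in 10 of the 30 fits that left out 1 mouse, and with at least 1 FPKM in every mouse the fits held Calm2 and Calm3 alone, with Pln added in AngII+QDG vs. AngII. The alternatives were a pseudocount of 0.1, no filter, at least 1 FPKM in every mouse, all 3 groups in 1 fit on shared Ensembl transcripts, both scalings, shared Ensembl transcripts for AngII vs. Control, leaving out each mouse, and the study's limits. The lowest adjusted p among them was 0.512, and an unadjusted limma p below 0.05 came up only for Calm2 in AngII vs. Control without mouse 3986. Tests of counts were not run. No paired analysis was possible because no mouse number occurs in more than 1 group.

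Some signs turned, none of a difference that passed a test, and the cause was not tested. Upper quartile scaling gave log2 fold changes of -0.048 for Pln and -0.14 for Calm3 in AngII+QDG vs. AngII, and of -0.0042 for Calm2 and -0.065 for Calm3 in AngII+QDG vs. Control. In mean FPKM it gave -0.187 for Pln and -16.4 for Calm3 in the first of these comparisons and -6.61 for Calm3 in the other. Scaling to the shared sum gave -0.0960 FPKM for Calm3 in AngII vs. Control. The correlation of Itpr1 with Ryr2 was -0.36 without its 2 farthest mice.

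With 1 mouse left out in turn, log2 fold changes ran from -0.049 to 0.22 for Pln and from -0.061 to 0.044 for Calm3 in AngII+QDG vs. AngII. In AngII+QDG vs. Control they ran from -0.32 to 0.097 for Atp2a2 and from -0.015 to 0.093 for Calm3. Differences in mean FPKM ran from -0.00069 to 0.0235 for Itpr1 in AngII vs. Control. In AngII+QDG vs. AngII they ran from -0.199 to 0.507 for Pln and from -7.34 to 5.98 for Calm3, and in AngII+QDG vs. Control from -0.594 to 0.140 for Atp2a2, from -0.200 to 0.0104 for Ryr2 and from -1.82 to 11.8 for Calm3. Calm2 in AngII vs. Control ran from 32.2 to 54.8 FPKM. Of 180 such values, 13 turned sign and 1 passed an exact permutation p of 0.05.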
